A study of Mus musculus with 12 samples.

Results

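The genes described here are 9 adhesion and homing molecules of lymphocytes, namely the integrin subunits Itgal, Itgb2, Itga4, Itgb7, Itgae and Itgb1, the selectin ligand Selplg, and the receptors S1pr1 and Ccr7. They were looked up by symbol (GENCODE M21) among the 52636 gene identifiers of the count table, where each was found under 1 identifier. The libraries came from dissociated tumor and dissociated liver of female FVB/NJ mice carrying Fo5 tumors, pieces of a mammary tumor from founder line 5 of MMTV-HER2 transgenic mice that were placed in the mammary fat pad of wild-type (WT) hosts. The MMTV promoter drives HER2 in mammary epithelium, so the tumor carries the transgene and the host does not. The TDB, a T cell-dependent bispecific antibody (anti-HER2 4D5-2C11 joined to anti-CD3), was given once into the tail vein at 5 mg/kg, and control mice received its buffer. All mice bore tumors, treatment began at mean volumes of 350 to 500 mm3, and organs were taken after 24 h. The 4 groups were tumor TDB, tumor vehicle, liver TDB and liver vehicle, with 3 libraries each, from 3 mice for each treatment according to the series' design text.

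Integrins are pairs of an alpha and a beta subunit that hold a leukocyte to a vessel wall, to another cell or to matrix. Itgal pairs with Itgb2 to form LFA-1, the receptor of ICAM-1. Itga4 pairs with Itgb1 to form VLA-4, which binds VCAM-1 and fibronectin, or with Itgb7 to form the gut-homing receptor of MAdCAM-1, and Itgae pairs with Itgb7 to form the E-cadherin receptor of tissue-resident lymphocytes. Selplg encodes PSGL-1, the scaffold on which leukocytes present selectin ligands for rolling. Ccr7 draws naive and central memory T cells and mature dendritic cells toward lymph nodes, and S1pr1 lets lymphocytes leave lymphoid organs along a sphingosine 1-phosphate gradient. Several of these genes are not restricted to lymphocytes: Itgb2 and Selplg are made by most leukocytes, S1pr1 is abundant in endothelium, and Itgb1 is made by nearly every adherent cell.

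The tumor libraries held 20796764 to 29396324 counts and the liver libraries 18460159 to 25542980. Levels are CPM scaled by TMM, a scaling that assumes most genes do not differ, over the 12 libraries (normalised CPM). TMM factors were 1.49 to 1.57 in tumor and 0.595 to 0.743 in liver, so levels set across tissues rest on that scaling. The labelled tissues were checked by their markers. The summed level of 7 hepatocyte markers was 4.72 to 35.1 normalised CPM in tumor and 166165 to 300029 in liver, and that of 9 mammary tumor epithelium markers was 14303 to 16792 in tumor and 519.7 to 1047 in liver. The biological coefficient of variation was 13% in tumor and 32.3% in liver. Liver TDB 3 had 2.05% of its counts on mitochondrial genes, against 0.847% to 1.28% in the other liver libraries. Spearman's rho between a gene's deviation from its group and its exon length, across 16542 genes that are not independent replicates, was -0.50, -0.37 and 0.55 in liver TDB 1, 2 and 3 and 0.10, -0.37 and 0.38 in liver vehicle 1, 2 and 3. Long genes were thus high in liver TDB 3 relative to the other TDB livers, and the vehicle livers also differed among themselves. Deviations were taken from the mean of the 3 libraries of a group, so the values within a group depend on each other. For the 9 genes, edgeR fold changes in liver that rest on liver TDB 3 are given with and without it. Most other liver results, among them the DESeq2 calls and most ratios between genes, are given only with it.

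In tumor, 6 of the 9 genes rose with TDB, 0 fell and 3 did not pass the test, by edgeR's quasi-likelihood test at an adjusted p under 0.05. Among all 15454 genes tested in tumor, 15.8% were called higher and 13.1% lower. The genes that rose were Itgal, Itgb2, Itga4, Itgb7, Selplg and Ccr7, and those that did not pass were Itgae, Itgb1 and S1pr1. The median log2 fold change of the 9 genes was 2.57 in tumor, beside -0.019 over all genes tested. In liver, 0 of the 9 genes passed by edgeR, where 0.513% of 13657 genes were called higher and 0.022% lower. There, 5 of the 9 had an unadjusted p under 0.05, all higher with TDB, where 5.84% of all genes were higher and 2.25% lower by that measure. DESeq2 called 3 (Itga4, Itgal and Itgb2), where it called 2.14% of genes higher and 0.439% lower, and limma-voom called 0, against 0.395% and 0.022%. A fit of all 12 libraries called 2 (Itga4 and Selplg), where 1.7% of genes were higher and 0.248% lower. Without liver TDB 3 the count stayed 0 by edgeR, where 1.09% of genes were higher and 0.0864% lower. The median log2 fold change of the 9 genes was 0.87 in liver, beside 0.043 over all genes tested. In bulk tissue, more cells of a type and more RNA per cell cannot be told apart.

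**Figure D1:**
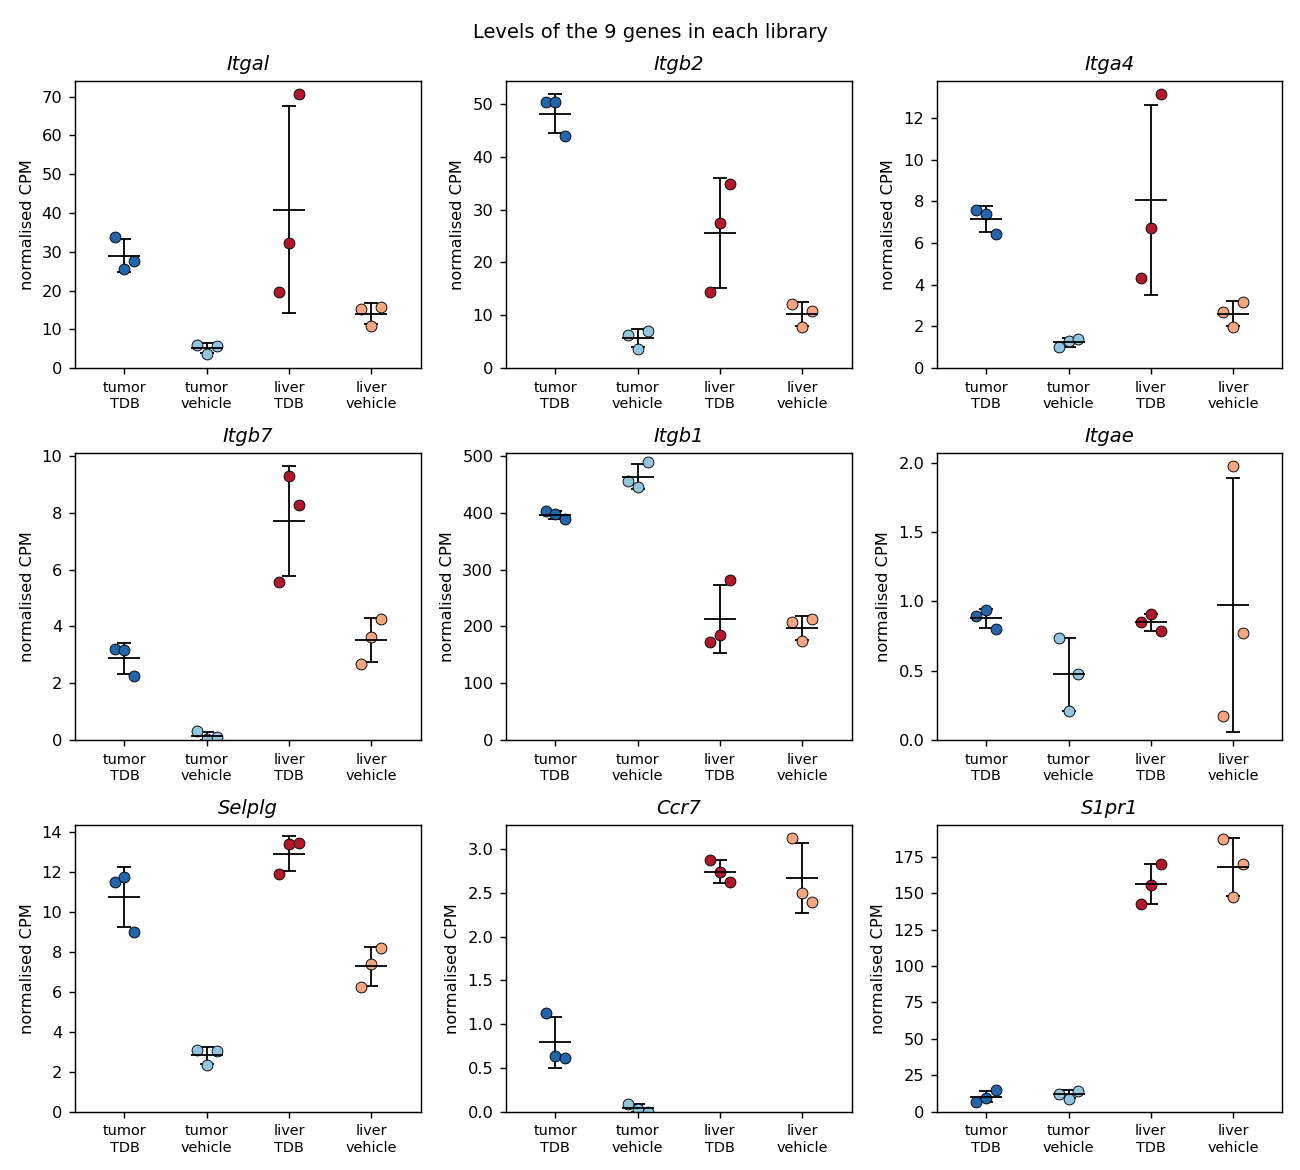
Level of each of the 9 genes in normalised CPM (vertical axis, linear, a separate scale for each gene) in the 3 libraries of each group, with the mean (long bar) and SD (whiskers). For Itgb7 and Ccr7 the tumor TDB libraries lie above near-empty tumor vehicle libraries, while S1pr1 in tumor and liver, and Ccr7 in liver, overlap between TDB and vehicle.

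Both chains of LFA-1 rose in tumor. Itgal (ENSMUSG00000030830, chromosome 7, 127296260 to 127335138, GRCm38, plus strand) had 33.8, 25.5 and 27.6 normalised CPM in tumor TDB 1, 2 and 3, against 6.08, 3.76 and 5.65 in tumor vehicle 1, 2 and 3. Each TDB tumor lay above each vehicle tumor, and the log2 fold change was 2.57 (SE 0.19, edgeR adjusted p = 5.22e-05). Itgb2 (ENSMUSG00000000290, chromosome 10, 77530252 to 77565708, plus strand), the beta 2 chain that LFA-1 shares with the myeloid integrins, had 50.3, 50.4 and 43.8 normalised CPM in the TDB tumors, against 6.24, 3.70 and 7.04 in the vehicle tumors. Its groups did not overlap either, and its log2 fold change of 3.17 (SE 0.21, edgeR adjusted p = 6.52e-05) corresponds to a 9.01-fold higher level with TDB (95% interval 6.35 to 12.8).

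In liver both LFA-1 chains were higher in TDB libraries than in vehicle libraries on average, without passing the test. Itgal had 19.6, 32.4 and 70.7 normalised CPM in liver TDB 1, 2 and 3, against 15.3, 10.9 and 15.7 in liver vehicle 1, 2 and 3, and the level in liver TDB 3 was 2.72 times the mean of the other TDB livers. The log2 fold change was 1.60 (SE 0.47, edgeR adjusted p = 0.331), and 0.93 without liver TDB 3 (edgeR adjusted p = 0.253). Itgb2 had 14.4, 27.4 and 34.9 normalised CPM in the TDB livers, against 12.1, 7.73 and 10.8 in the vehicle livers, a log2 fold change of 1.37 (SE 0.37, edgeR adjusted p = 0.28), and 1.08 without liver TDB 3. Neither gene's groups overlapped in liver, although the lowest TDB library, liver TDB 1, lay close to the highest vehicle library for each. The smallest and the largest adjusted p over 16 alternative settings were 0.0372 and 0.881 for Itgal, and 0.033 and 0.837 for Itgb2.

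Itga4 and Itgb7, the subunits of the gut-homing integrin, also rose in tumor. Itga4 (ENSMUSG00000027009, chromosome 2, 79255426 to 79333123, plus strand) had 7.56, 7.42 and 6.42 normalised CPM in the TDB tumors, against 1.01, 1.30 and 1.42 in the vehicle tumors, with a log2 fold change of 2.60 (SE 0.18, edgeR adjusted p = 1.18e-05). Of its exonic bases, 8% are shared with Cerkl on the opposite strand, and reads of Itga4 and Cerkl cannot be told apart without the strand setting of the counting, which is not given in the sources used here. Itgb7 (ENSMUSG00000001281, chromosome 15, 102215995 to 102231944, minus strand) had 107, 139 and 73 counts in the TDB tumors and 10, 1 and 4 counts in the vehicle tumors. In normalised CPM these were 3.19, 3.18 and 2.24 with TDB, against 0.307, 0.0303 and 0.118 with vehicle, so the transcript was close to the detection limit in tumors that had not received the antibody. The log2 fold change was 4.30 (SE 0.47, edgeR adjusted p = 0.000277), and the ratio of summed counts, scaled by library size, was 19.2 (11.5 to 34.8 by counting error).

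In liver neither Itga4 nor Itgb7 passed the test. Itga4 had 4.31, 6.72 and 13.2 normalised CPM in liver TDB 1, 2 and 3, against 2.69, 1.98 and 3.16 in the vehicle livers, with the highest value in liver TDB 3. Its log2 fold change was 1.67 (SE 0.46, edgeR adjusted p = 0.285), and 1.12 without liver TDB 3. Itgb7 had 5.55, 9.29 and 8.25 normalised CPM in the TDB livers, against 2.69, 3.61 and 4.24 in the vehicle livers, a log2 fold change of 1.17 (SE 0.33, edgeR adjusted p = 0.286), and 1.12 without liver TDB 3. The groups did not overlap for either gene. Itga4 has the longest exons of the 9 genes (13978 bases in union) and Itgb7 some of the shortest (2770 bases).

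**Figure D2:**
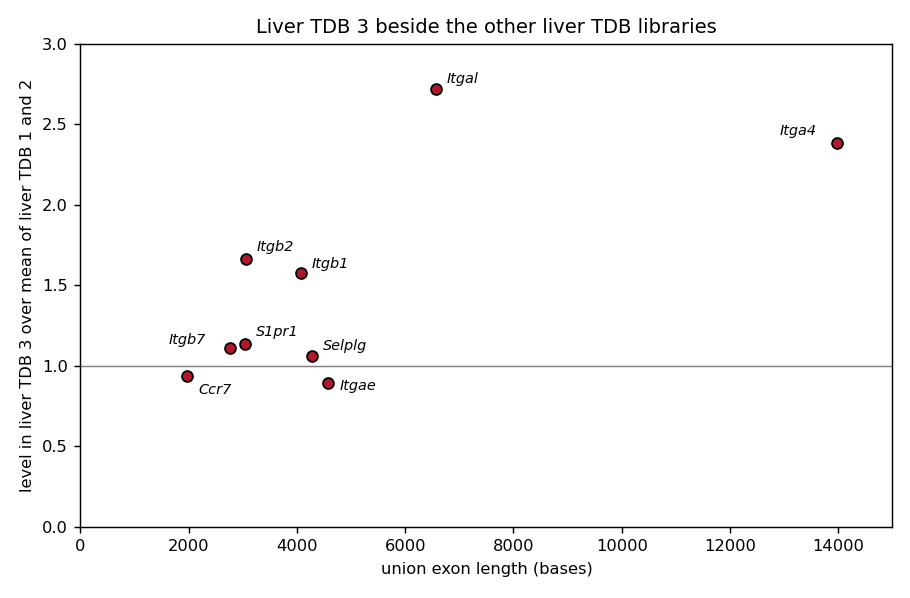
Level in liver TDB 3 divided by the mean of liver TDB 1 and 2 (vertical axis, from normalised CPM) against union exon length in bases (horizontal axis) for the 9 genes, with a line at equal levels. Itgal and Itga4, with the longest exons, have ratios of 2.72 and 2.39, and Itgb2 and Itgb1 have 1.67 and 1.58, while the other 5 lie between 0.893 and 1.14.

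Itgae (ENSMUSG00000005947, chromosome 11, 73090583 to 73147446, plus strand), the alpha chain of the E-cadherin receptor, was the lowest of the 9 genes per kilobase of exon in both TDB groups. It had 0.893, 0.939 and 0.798 normalised CPM in the TDB tumors (30, 41 and 26 counts), against 0.737, 0.212 and 0.474 in the vehicle tumors (24, 7 and 16 counts). The TDB tumors lay just above the vehicle tumors without overlap, and the log2 fold change of 0.97 (SE 0.39, edgeR adjusted p = 0.0977) did not pass, although it did without tumor vehicle 1 (1.43, edgeR adjusted p = 0.0427). In liver Itgae had 0.849, 0.912 and 0.786 normalised CPM with TDB, against 0.173, 1.98 and 0.771 with vehicle. The vehicle livers spanned the TDB livers, and the log2 fold change of -0.16 (SE 0.70) has a 95% interval of -1.77 to 1.46. This wide interval, at 2 to 23 counts per library, leaves the direction of any change undetermined.

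Itgb1 (ENSMUSG00000025809, chromosome 8, 128685654 to 128733200, plus strand), the beta 1 chain, was the highest of the 9 genes per kilobase in both tumor groups. It had 403.3, 398 and 389 normalised CPM in the TDB tumors, against 457, 446 and 489 in the vehicle tumors. The TDB tumors lay below the vehicle tumors, and the log2 fold change of -0.14 (SE 0.076, 95% interval -0.31 to 0.031, edgeR adjusted p = 0.202) did not pass. Scaled by total counts alone, which lowers the median of all genes in this comparison by 0.13, the change in Itgb1 was -0.27 and passed (edgeR adjusted p = 0.0202), where 12% of genes were then called higher and 25.8% lower. In liver Itgb1 had 173, 184 and 281 normalised CPM with TDB, against 207, 174 and 213 with vehicle, which overlap, and the log2 fold change was 0.15 (SE 0.25, 95% interval -0.42 to 0.73) and -0.11 without liver TDB 3.

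The RefSeq promoter table (GRCm38.p6) held windows for 3 of the 9 genes, namely the alpha 4 chain and its alternative beta partners, of which Itga4 and Itgb7 rose in tumor and Itgb1 did not. They are shown so that the upstream sequence of these partners can be compared. The bases are those before each gene's start, 5′ to 3′ on the gene's strand, at chr2:79255176-79255425 (plus) for Itga4, chr15:102231945-102232185 (minus) for Itgb7 and chr8:128685404-128685653 (plus) for Itgb1. Capitals mark matches, on either strand, to the motifs searched.
Itga4: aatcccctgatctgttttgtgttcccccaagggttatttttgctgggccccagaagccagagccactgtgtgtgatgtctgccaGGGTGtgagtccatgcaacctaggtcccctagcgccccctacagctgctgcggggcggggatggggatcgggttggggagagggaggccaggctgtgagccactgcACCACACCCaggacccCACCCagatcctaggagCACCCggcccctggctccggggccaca
Itgb7: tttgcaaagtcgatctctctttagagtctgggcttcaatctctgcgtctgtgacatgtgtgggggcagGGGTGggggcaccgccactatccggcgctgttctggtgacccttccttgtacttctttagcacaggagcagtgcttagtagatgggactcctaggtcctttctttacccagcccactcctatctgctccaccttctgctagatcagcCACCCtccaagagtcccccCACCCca
Itgb1: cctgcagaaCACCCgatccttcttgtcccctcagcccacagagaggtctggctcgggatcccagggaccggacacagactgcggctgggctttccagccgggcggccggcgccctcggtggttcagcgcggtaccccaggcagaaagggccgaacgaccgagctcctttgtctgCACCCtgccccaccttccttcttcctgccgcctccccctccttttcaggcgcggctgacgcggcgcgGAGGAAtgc
The motifs were the interferon-stimulated response element, GGGTG for the KLF family, TGTGGT for RUNX, GAGGAA for ETS and TTCNNNGAA for STAT-bound GAS elements. The KLF letters occur 4 times upstream of Itga4, 3 times upstream of Itgb7 and 2 times upstream of Itgb1, and 52% of 32851 promoter windows of 250 bases hold them at least once. Itga4 has 1 match to the RUNX letters, which overlaps a KLF match and which 14% of windows hold, and Itgb1 has 1 match to the ETS letters, which 23.3% of windows hold. None of the 3 windows has the interferon element (2.98% of windows) or the GAS letters (7.02%). These matches describe letters and not bound sites.

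Because an alpha chain reaches the surface only with a beta chain, the balance of partner transcripts was compared as log2 ratios of levels per kilobase within each library. In tumor, Itgal relative to Itgb2 was -1.68, -2.09 and -1.78 in the TDB tumors, against -1.14, -1.08 and -1.42 in the vehicle tumors, so the beta 2 chain gained more than its LFA-1 partner (difference -0.63). Itga4 relative to Itgb1 was -7.51, -7.52 and -7.70 in the TDB tumors, against -10.59, -10.19 and -10.20 in the vehicle tumors, a difference of 2.75. Both shifts separated the groups without overlap. Itgb7 relative to Itgb1 averaged -6.57 ± 0.27 in the TDB tumors and -11.57 ± 1.65 in the vehicle tumors (SD, n = 3 each), a difference of 5.00. The ratios of Itga4 and of Itgae to Itgb7 were lower in the TDB tumors, by 2.25 and 3.72 on the log2 scale, on vehicle values that rest on 1 to 10 Itgb7 counts.

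In liver the ratio of Itga4 to Itgb1 was -7.10, -6.55 and -6.19 with TDB, against -8.04, -8.23 and -7.85 with vehicle. The difference was 1.42 with liver TDB 3 included, which had the highest of these ratios. The ratio of Itgb7 to Itgb1 differed by 1.05 in the same direction, again without overlap. Itgal relative to Itgb2 was -0.67, -0.87 and -0.09 with TDB and -0.77, -0.61 and -0.56 with vehicle, which overlap (difference 0.11). Of 10 such tests over both tissues, 7 reached p = 0.1, the smallest that an exact permutation test of 3 against 3 libraries can give, with a smallest adjusted p of 0.143. None could pass the threshold in this design.

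**Figure D3:**
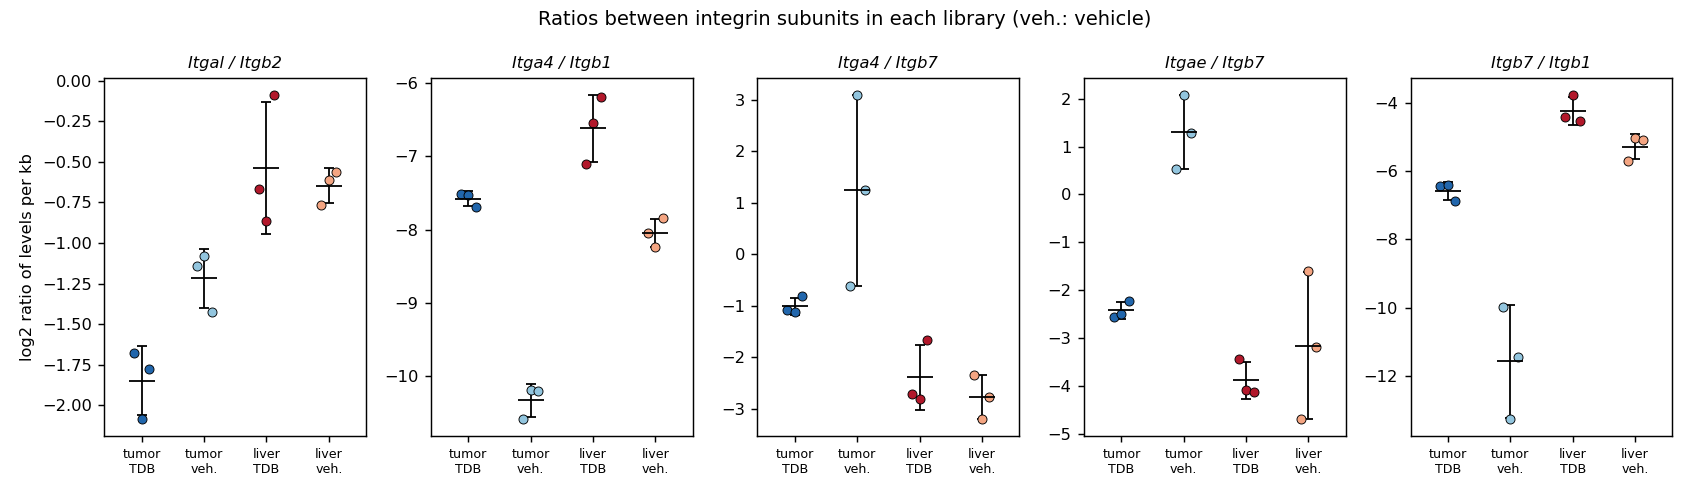
Log2 ratio of levels per kilobase of exon between integrin subunits (vertical axis, a separate scale for each pair) in the 3 libraries of each group, with the mean and SD. The ratio of Itga4 to Itgb1 is higher in TDB than in vehicle libraries in both tissues. The ratio of Itgal to Itgb2 is lower with TDB than with vehicle in tumor, and its liver groups overlap.

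Selplg (ENSMUSG00000048163, chromosome 5, 113818536 to 113832644, minus strand), the PSGL-1 gene, rose in tumor. It had 11.5, 11.7 and 9.0 normalised CPM in the TDB tumors, against 3.07, 2.34 and 3.05 in the vehicle tumors, and the groups did not overlap. The log2 fold change was 2.01 (SE 0.16, edgeR adjusted p = 3.55e-05). In liver it had 11.9, 13.4 and 13.4 normalised CPM with TDB, against 6.24, 7.39 and 8.18 with vehicle. These groups did not overlap, and the log2 fold change was 0.87 (SE 0.25, edgeR adjusted p = 0.298) with liver TDB 3 and 0.83 without it.

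Ccr7 (ENSMUSG00000037944, chromosome 11, 99144196 to 99155077, minus strand) was nearly absent from vehicle tumors. It had 38, 28 and 20 counts in tumor TDB 1, 2 and 3, against 3, 1 and 0 in tumor vehicle 1, 2 and 3, or 1.13, 0.641 and 0.614 normalised CPM with TDB against 0.0922, 0.0303 and 0 with vehicle. The log2 fold change was 4.26 (SE 0.65, edgeR adjusted p = 0.0014), and the scaled ratio of summed counts was 19.4 (7.32 to 73.0 by counting error). In liver Ccr7 had 2.87, 2.73 and 2.62 normalised CPM with TDB, against 3.12, 2.49 and 2.39 with vehicle. These overlap, and the log2 fold change of 0.083 (SE 0.28) has a 95% interval of -0.57 to 0.74.

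S1pr1 (ENSMUSG00000045092, chromosome 3, 115710433 to 115715072, minus strand), the egress receptor, showed no called change in either tissue. It had 6.97, 9.57 and 14.7 normalised CPM in the TDB tumors, against 11.9, 9.04 and 14.5 in the vehicle tumors, and the vehicle values lie inside the TDB range. The log2 fold change was -0.10 (SE 0.30, 95% interval -0.82 to 0.62). In liver it had 143, 156 and 170 normalised CPM with TDB, against 187, 147 and 170 with vehicle, and the log2 fold change was -0.061 (SE 0.19, 95% interval -0.51 to 0.38). Per kilobase, S1pr1 stood beside Itgb1 as the most abundant of the 9 genes in liver, at 51.2 ± 4.46 with TDB and 55.1 ± 6.56 with vehicle (SD, n = 3 each). The summed level of 11 endothelial markers, the cell type best known for S1pr1 outside lymphocytes, was 77.9 to 125.5 normalised CPM in the TDB tumors, against 97.3 to 160.7 in the vehicle tumors, and 210 to 294 in the TDB livers, against 223 to 267 in the vehicle livers. The part of endothelial cells in the S1pr1 values was not tested.

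**Figure D4:**
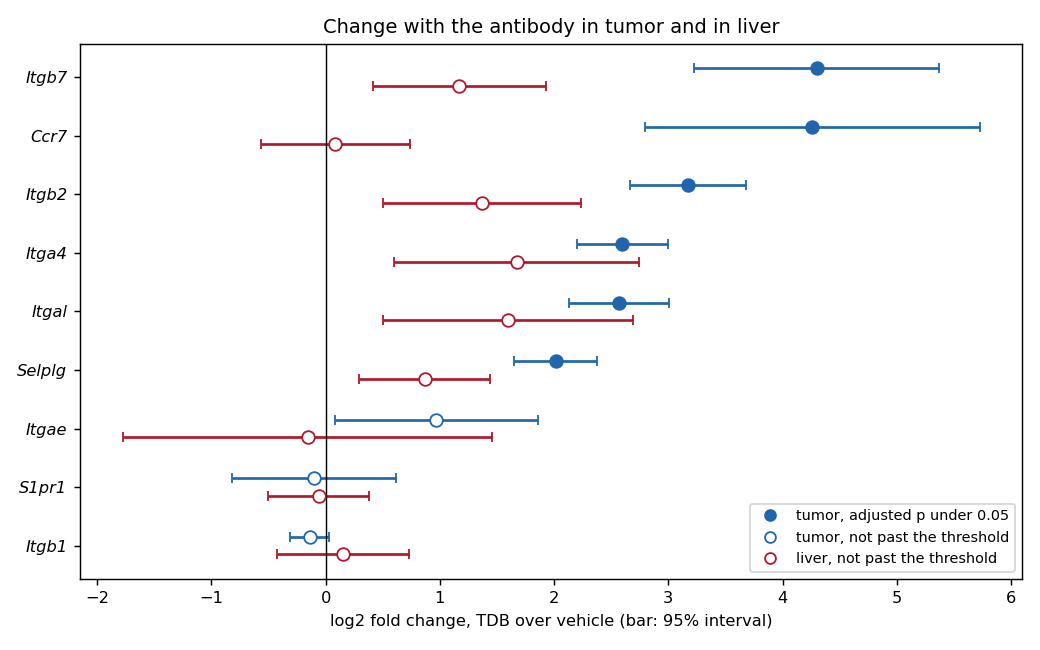
Log2 fold change of TDB over vehicle (horizontal axis) with its 95% interval for each of the 9 genes, in tumor (blue, upper point of each pair) and in liver (red, lower point), filled where the edgeR adjusted p was under 0.05. Itgb7 and Ccr7 lie at 4.30 and 4.26 in tumor and at 1.17 and 0.083 in liver, and no liver point is filled.

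Whether the change with TDB differed between tissues was tested as an interaction, the tumor effect minus the liver effect. It passed for 2 of the 9 genes, both higher, where 1.83% of 16557 genes were called higher and 0.658% lower. The difference was 4.09 for Ccr7 (SE 0.68, edgeR adjusted p = 0.00697) and 3.07 for Itgb7 (SE 0.61, edgeR adjusted p = 0.0189). Selplg (1.10, SE 0.27, edgeR adjusted p = 0.0512) and Itgb2 (1.77, SE 0.45, edgeR adjusted p = 0.0683) did not pass. Itga4 (0.89), Itgal (0.94) and Itgae (1.07) had positive differences that did not pass, and those of Itgb1 (-0.33) and S1pr1 (-0.081) were negative and did not pass. Without liver TDB 3, 6 of the 9 passed (Itga4, Itgal, Itgb2, Itgb7, Selplg and Ccr7), where 3.09% of genes were called higher and 1.01% lower. Without tumor TDB 1, tumor TDB 2 or tumor vehicle 3, Ccr7 alone passed.

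The order of levels across the 4 groups differed from gene to gene. Itgal, Itga4 and Selplg ran from liver TDB through tumor TDB and liver vehicle down to tumor vehicle, and the top neighbours overlapped for Itgal and Itga4 but not for Selplg. For Itgb2 the highest group was tumor TDB (48.2 ± 3.74 normalised CPM), above liver TDB (25.6 ± 10.3), and no neighbours in its order overlapped. Itgb7 and Ccr7 were lower in TDB tumors than in either liver group on average, with overlap between tumor TDB and liver vehicle for Itgb7. S1pr1 and Itgb1 separated by tissue, S1pr1 being higher in liver and Itgb1 in tumor, and for S1pr1 the TDB and vehicle groups of a tissue overlapped in both tissues. The 4 groups of Itgae were ordered liver vehicle, tumor TDB, liver TDB and tumor vehicle, and each pair of neighbours overlapped except liver TDB and tumor vehicle. These orders rest on the TMM scaling. By total-count CPM, tumor TDB averaged above liver TDB for Itgal (43.7 against 29.1), Itga4 (10.75 against 5.71) and Selplg (16.2 against 8.91). Itgb7 was then higher in tumor TDB (4.32) than in liver vehicle (2.18).

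Between vehicle tumor and vehicle liver, 1 gene was higher in tumor (Itgb1, log2 fold change 1.22) and 7 were lower, where 40.8% of 15633 genes were called higher and 37.8% lower. Without liver vehicle 1 or tumor vehicle 2, 6 were lower, Itgb2 no longer passing. The largest differences were for Ccr7 (-5.87, SE 0.57), Itgb7 (-4.50, SE 0.54) and S1pr1 (-3.83, SE 0.21). Scaled by total counts, which moves the median of all genes up by 1.33 in this comparison, these 3 were the ones still lower, where 17.7% of genes were lower and 67.1% higher. Between TDB tumor and TDB liver, 2 genes were higher in tumor (Itgb2, 0.91, and Itgb1, 0.90) and 3 were lower (S1pr1, -3.91, Ccr7, -1.79, and Itgb7, -1.42), where 34.1% of 15953 genes were called higher and 33.5% lower. Without liver TDB 2, 0 were higher, and without any 1 of the TDB tumors 1 was. By total counts, with a shift of 1.13, 4 were higher and 1 was lower (S1pr1), where 60.9% of genes were higher and 16% lower, so the share of the 9 genes called higher was below that of all genes. These tissue contrasts share libraries with the treatment comparisons.

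Summed markers of several leukocyte types also differed between TDB and vehicle libraries. The summed level of 14 T cell markers was 13.97 to 24.3 normalised CPM in the TDB tumors, against 4.07 to 6.30 in the vehicle tumors, where Cd3e was at 0 counts, and 56.9 to 66.8 in the TDB livers, against 24.6 to 31.1 in the vehicle livers. Sums of 12 monocyte and macrophage markers were 1128 to 1336 in the TDB tumors, against 377 to 503 in the vehicle tumors. Cd14 made up 56.3% of the sum with TDB and 29.1% with vehicle, and 7 of the 12 rose and 0 fell. Those of 6 NK cell markers were 9.03 to 13.7 in the TDB tumors, against 0.152 to 0.307 in the vehicle tumors. Klrk1 made up 63.7% of that sum with TDB, and the 4 testable NK cell markers rose. Neutrophil markers (8 genes) summed to 25.3 to 48.8 in the TDB tumors, against 3.28 to 8.02 in the vehicle tumors, with Ly6g at 0 counts in the vehicle tumors. S100a8 made up 71.1% of the neutrophil sum with TDB, and of 5 testable neutrophil markers 3 rose and 0 fell. B cell markers (8 genes) summed to 1.29 to 2.14 in the TDB tumors, against 0.503 to 0.789 in the vehicle tumors. Cr2 made up 66.8% of the vehicle sum, and 0 of these 8 could be tested in tumor. The 8 dendritic cell markers summed to 26.4 to 29.9 in the TDB tumors, against 24.8 to 41.0 in the vehicle tumors, where Fscn1 made up 69.6% of the sum. Of these dendritic cell markers 6 could be tested in tumor, and 4 rose and 0 fell, with a median log2 fold change of 3.01. Beside these counts, 15.8% of all genes tested in tumor were called higher and 13.1% lower. In liver the sums of dendritic cell markers were 29.5 to 35.6 with TDB, against 16.8 to 24.1 with vehicle, and those of NK cell markers were 10.0 to 18.5 with TDB, against 3.55 to 9.28 with vehicle. Klrk1 made up 80.1% of the NK cell sum in the TDB livers and 62.6% in the vehicle livers. Leukocyte markers (6 genes) summed to 221 to 313 in the TDB livers, against 153 to 166 in the vehicle livers, and to 445 to 453 in the TDB tumors, against 279.6 to 333 in the vehicle tumors. B cell markers in liver summed to 7.69 to 11.5 with TDB, against 12.1 to 12.5 with vehicle. The hepatocyte sum was 166165 to 210257 in the TDB livers, against 254404 to 300029 in the vehicle livers. Sums of neutrophil markers and of monocyte and macrophage markers overlapped between the liver groups. Of the markers tested in liver, edgeR called 1 of 14 T cell markers higher. It called 0 of 2 NK cell, 0 of 6 dendritic cell and 0 of 6 leukocyte markers. Of 5 B cell and 7 hepatocyte markers it called 0. Over all genes tested in liver, 0.513% were called higher and 0.022% lower. At unadjusted p under 0.05, 12 T cell, 5 leukocyte, 3 dendritic cell and 1 NK cell markers were higher and 2 hepatocyte markers lower. By that measure 5.84% of all genes were higher and 2.25% lower. The part of any of these cell types in the 9 genes' changes was not tested.

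Set beside the T cell markers of the same library, the genes were compared as log2 ratios of levels per kilobase. In the vehicle tumors Cd4 and Cd247 made up 29.4% and 21.8% of that sum, against 6.43% and 2.54% in the TDB tumors, and neither passed the test (log2 fold changes 0.49 and -0.41), while the other 12 markers rose (median of the 14, 3.92). Beside that median, the log2 fold changes of Itgal and Itga4 were 2.57 and 2.60 and that of Itgb7 was 4.30. Itgal and Itga4 relative to the T cell sum differed by -0.074 and -0.054 on the log2 scale between TDB and vehicle tumors, with overlapping groups, and the difference was positive, at 0.48 and 0.50, when levels were not divided by exon length. Itgb7 relative to the T cell sum was higher in the TDB tumors by 2.20, without overlap, and Itgb2 by 0.56, with overlap. S1pr1 and Itgb1 were each lower by 2.81, Itgae by 1.52 and Selplg by 0.65, all without overlap. Neither S1pr1 nor Itgb1 passed the test on its own level in tumor (log2 fold changes -0.10 and -0.14). The genes were also set beside 6 general leukocyte markers, whose sum Lcp1 dominates in tumor. Relative to that sum, Itgb7 was higher in the TDB tumors by 3.99, on few counts in the vehicle tumors. Itgb2 was higher by 2.35, Itga4 by 1.74, Itgal by 1.72 and Selplg by 1.14. Itgb1 and S1pr1 were each lower by 1.01, without overlap, and Itgae differed by 0.27, with overlap. In liver Ccr7 relative to the T cell sum was lower with TDB, at -4.54 ± 0.11 with TDB and -3.53 ± 0.32 with vehicle (SD, n = 3 each). Relative to the same sum, S1pr1 was lower in the TDB livers by 1.16 and Itgb1 by 0.98, each without overlap. Over 34 such ratios the smallest exact permutation p was 0.1, the smallest possible, and the smallest adjusted p was 0.2. Ccr7 was left out in tumor because tumor vehicle 3 had 0 counts.

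The ligands of the 9 genes were examined next as a list of 13, of which 9 were testable in tumor, and 4 rose, 0 fell and 5 did not pass (median log2 fold change 0.57). For this list and those below, the shares over all genes tested in tumor were 15.8% called higher and 13.1% lower. Of the ligands of LFA-1, Icam1 rose, while Icam2 (0.043, SE 0.23) and F11r (0.13, SE 0.075) did not pass. Of those of VLA-4, Vcam1 rose, while Fn1, which encodes fibronectin, did not pass (0.57, SE 0.52). Icam1 averaged 32.7 ± 2.44 normalised CPM in the TDB tumors and 2.47 ± 0.73 in the vehicle tumors (SD, n = 3 each; log2 fold change 3.81, SE 0.19), and Vcam1 averaged 44.1 ± 4.23 in the TDB tumors and 16.1 ± 3.78 in the vehicle tumors (1.54, SE 0.17). Selp, the endothelial and platelet selectin that binds PSGL-1, rose on 130 counts in the TDB tumors against 4 in the vehicle tumors (4.83, SE 0.45). Madcam1, the ligand of the Itga4 and Itgb7 pair, was too low to test, with 4 counts over the TDB tumors and 1 over the vehicle tumors. Cdh1, the E-cadherin that the Itgae and Itgb7 pair binds, did not pass in tumor (0.14). Among ligands in liver, 0 of 9 passed by edgeR (1 without liver TDB 1, 2 without liver TDB 3, 2 with no filter on low counts and 2 with all 12 libraries in one fit), and 3 passed by DESeq2. By edgeR, 3 were at an unadjusted p under 0.05, among them Icam1 (1.25, SE 0.24, edgeR adjusted p = 0.0908) and Vcam1 (1.84, SE 0.38, edgeR adjusted p = 0.13). By that measure 5.84% of all genes were higher in liver and 2.25% lower. The annotation gives Ccl19 and Ccl21a, the ligands of Ccr7, to more than 1 near-identical identifier, and no value is given for them.

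Among 18 other homing and chemokine receptors, 12 were testable in tumor, of which 8 rose, 2 fell and 2 did not pass (median 2.30). The shares over all genes were 15.8% higher and 13.1% lower. Ccr9, a gut-homing receptor of T cells, had 96 counts in the TDB tumors and 2 in the vehicle tumors, a scaled ratio of 43.4 (11.7 to 363 by counting error; log2 fold change 5.29, SE 0.67). Cxcr6, a receptor of tissue-resident and effector T cells, rose by 4.04 (SE 0.72), the monocyte receptor Ccr2 by 2.96 (SE 0.18) and the lymphocyte receptor S1pr4 by 2.56 (SE 0.52). None of 12 passed in liver, and the smallest unadjusted p-value was that of the hyaluronan receptor Cd44 (1.31, SE 0.26, edgeR adjusted p = 0.113).

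Of 20 other integrin subunits, 4 rose, 3 fell and 13 did not pass in tumor (median 0.060). These counts are close to the shares over all genes, 15.8% higher and 13.1% lower. The 3 with the largest rises were alpha chains that pair with Itgb2 in myeloid cells. Itgax averaged 28.6 ± 1.55 normalised CPM in the TDB tumors and 7.33 ± 1.90 in the vehicle tumors (SD, n = 3 each; log2 fold change 2.05, SE 0.18), Itgam rose by 2.17 (SE 0.32) and Itgad by 2.23 (SE 0.38). The laminin-binding Itga7 fell by 1.48 (SE 0.24). Of 14 tested in liver 0 passed, with Itgax (1.42, SE 0.42) and Itgb5 (-0.49, SE 0.19) at the smallest unadjusted p-values.

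Intracellular partners of the integrins were tested as 17 genes of integrin activation, of which 8 rose, 2 fell and 7 did not pass in tumor (median 0.15). Over all genes, 15.8% were called higher there and 13.1% lower. Skap1, an adaptor of T cell adhesion, had 84 counts in the TDB tumors and 3 in the vehicle tumors, a scaled ratio of 25.3 (8.37 to 125 by counting error; log2 fold change 4.59, SE 0.79). Its partner Fyb rose by 1.85 (SE 0.15), the adaptor Lcp2 (SLP-76) by 1.94 (SE 0.13) and the cytohesin partner Cytip by 2.08 (SE 0.25). Of the 17 activation genes, 0 passed in liver and 7 had an unadjusted p under 0.05, with Cytip (1.94, SE 0.36, edgeR adjusted p = 0.0828) and Lcp2 (1.31, SE 0.25, edgeR adjusted p = 0.0908) first. All 7 were higher with TDB, where 5.84% of all genes were higher and 2.25% lower by that measure.

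The enzymes that decorate PSGL-1 were examined as a further list. Of 9 testable genes of selectin ligand glycosylation and sulfation in tumor, 4 rose, 1 fell and 4 did not pass (median 0.25), with the core O-glycan synthase C1galt1 higher by 0.90 (SE 0.082), the tyrosine sulfotransferase Tpst1 by 0.84 (SE 0.12), the sialyltransferase St3gal4 by 0.72 (SE 0.16) and St3gal6 lower (-0.61, SE 0.14). Of 8 tested in liver 0 passed, and Gcnt1 (1.09, SE 0.43) and St3gal6 (-0.38, SE 0.25) came first by unadjusted p. Of 7 genes that make, export or break down the ligand of S1pr1, 1 rose, 2 fell and 4 did not pass in tumor (median -0.11). Beside this list and the glycosylation list, 15.8% of all genes were called higher in tumor and 13.1% lower. The kinase Sphk1 had 7.51 ± 1.98 normalised CPM in the TDB tumors and 15.6 ± 4.10 in the vehicle tumors (SD, n = 3 each; log2 fold change -0.97, SE 0.26), the lyase Sgpl1 rose by 0.36 (SE 0.066) and the phosphatase Plpp3 fell by 0.36 (SE 0.10). In liver 0 of 5 passed, with Sgpl1 (0.17, SE 0.28) and the exporter Spns2 (-0.12, SE 0.20) first.

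Of 11 testable regulators of S1pr1, Ccr7 and Itgae in tumor, 5 rose, 1 fell and 5 did not pass (median 0.36), where 15.8% of all genes were called higher and 13.1% lower. Cd69, which removes the S1pr1 protein from the surface of activated lymphocytes, averaged 2.98 ± 0.13 normalised CPM in the TDB tumors and 0.132 ± 0.0998 in the vehicle tumors (SD, n = 3 each; log2 fold change 4.55, SE 0.37). Runx3, a factor of the tissue-resident program, rose by 1.64 (SE 0.20), Prdm1 (Blimp-1) by 0.97 (SE 0.17) and the arrestin Arrb2 by 0.59 (SE 0.14). In liver 0 of 10 passed, with Cd69 (1.60, SE 0.55, edgeR adjusted p = 0.439) and Arrb1 (0.52, SE 0.48) first.

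**Figure D5:**
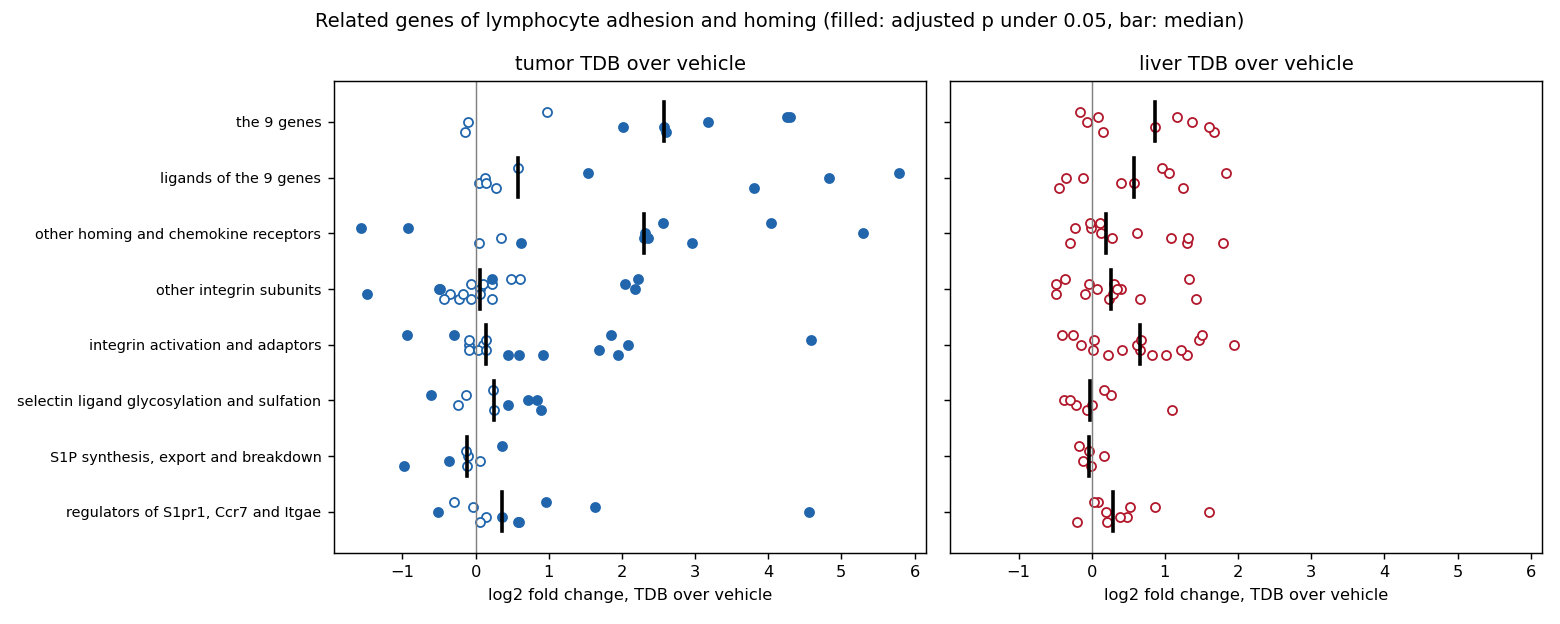
Log2 fold change of TDB over vehicle (horizontal axis) for the 9 genes and 7 lists of related genes, 1 point per gene, in tumor (left) and in liver (right), filled where the edgeR adjusted p was under 0.05, with a bar at each list's median. In tumor the median is 2.57 for the 9 genes, 2.30 for the other homing receptors and 0.060 for the other integrin subunits, and no liver point is filled.

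Genes whose levels across the 12 libraries most resembled each of the 9 were ranked by the root mean square difference of their centred log2 profiles, over 16557 genes. Itgal and Itga4 were each other's nearest gene, at 0.30. Both were also high in liver TDB 3, at 2.72 and 2.39 times the mean of the other TDB livers. The part of that library in their likeness was not tested. Nearest to Itgb2 were Csf2rb2 (0.26) and Ms4a4c, and nearest to Selplg were Sash3 (0.16), Entpd1 and Was. Icam1 was among the 3 nearest to Itgb7 (0.38), with Hdc and Tmem140, and the T cell receptor components Cd3d (0.45) and Cd3g (0.47) were among the 3 nearest to Ccr7, with Apol7a (0.40). S1pr1 was nearest to Fads1, Meis1 and H6pd (0.23 to 0.28), Itgb1 to Zfp60, Dennd6a and Scamp1 (0.074 to 0.081), and Itgae to B3gnt8 and Milr1 (each 0.51, beside a root mean square of 0.78 for its own profile). The libraries of a group share tissue and treatment, so this likeness is a description.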

How the data were processed

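Bulk RNA-seq counts of 12 libraries were analysed, grouped by tissue and treatment from the labels. The authors deposited whole-number counts per gene, not normalized. GSNAP, limma and GRCm38 stand in the submitters' processing notes, with no version and no role, and no source used here gives the counter or its strand setting. The authors also deposited FPKM values, computed over the genomic span with introns (84.2% of 8746 genes lay within 1% of that length), so they served only as an alternative, as log2(FPKM + 1) and log2(FPKM + 0.1), where folds of low genes come out too small.

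The test was edgeR 4.0.16's robust quasi-likelihood test in R 4.3.3, with TMM scaling and filterByExpr (minimum count 10, minimum total 15), with Benjamini-Hochberg adjustment over all genes tested and a threshold of 0.05. The fits were within liver, within tumor, within each treatment between tissues, and over the 12 libraries for the interaction. Those within liver, within tumor and for the interaction were tested on simulated data, and those between tissues were not. All 9 genes passed the filter on low counts in each fit. Ratios within a library were compared with two-sided exact permutation tests. Intervals of count ratios (95%) cover counting error only. P-values measure the spread between mice; library numbers are not tied to mice across tissues by any label, so tissues were treated as unpaired. Symbols came from GENCODE M21, which matched 52489 of 52636 identifiers, and promoter windows from RefSeq, of which the bases inside the gene were left out.

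The 9 genes, the 7 related lists and the 11 marker lists were chosen with earlier results of these data known. From each related list, the up to 4 called genes with the largest change in tumor and the 2 with the smallest unadjusted p in liver are named, plus ligands beside the gene they bind; some genes that this rule or the likeness ranking gave are not reported here. The annotation lacked 1 of the 203 symbols. Alternatives were other scalings, DESeq2 1.42.0, limma-voom (limma 3.58.1), no filter, FPKM, a shared fit, the library number as a block and each library left out; scaling by total counts was added after the data were seen.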

Additional observations from a re-analysis of the deposited data

Results flagged for a closer look

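The change with TDB differed between tumor and liver for the genes below, taken from the 9 genes and those named from the related lists, by the interaction test over the 12 libraries (edgeR adjusted p under 0.05), given as the tumor effect minus the liver effect on the log2 scale. Among the 9 genes these were Ccr7 (4.09) and Itgb7 (3.07). Among their ligands they were Selp (5.11) and Icam1 (2.51), and among other homing receptors Ccr9 (4.54) and Cxcr6 (3.99). Itga7 differed in the other direction (-1.75), with 0.729 ± 0.119 normalised CPM in the TDB tumors and 2.17 ± 0.388 in the vehicle tumors, against 14.3 ± 1.28 in the TDB livers and 12.5 ± 2.19 in the vehicle livers (SD, n = 3 each). For Ccr7, Selp, Ccr9 and Cxcr6 the vehicle tumors held 4, 4, 2 and 7 counts in all, so the size of the difference depends on few counts.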

How the results depend on the processing

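The 6 genes called higher in tumor remained called under each of 16 alternatives, and 6 to 7 genes were called there when 1 library was left out. Total-count scaling added 1 lower gene in tumor (Itgb1). In liver the count of genes called, 0, became 3 by DESeq2, 2 with all libraries in one fit and 2 with the replicate block (which called 291 genes higher in all), and stayed 0 in each fit that left out 1 library. The interaction called 2 genes, 4 by DESeq2, 1 on log2(FPKM + 1) and 1 with the replicate block, and 1 to 6 with 1 library left out. It called 3 by each of median-of-ratios scaling, upper quartile scaling, no filter and log2(FPKM + 0.1). By total counts 3 genes were lower in vehicle tumor than in vehicle liver, and in TDB tumor against TDB liver 4 were higher and 1 was lower; leaving out 1 library gave 0 to 2 higher there, with 0 without liver TDB 2. Whether the number pairs the libraries could not be decided, since deviations were taken within groups of 3 libraries. Correlations of same-numbered libraries' deviations were -0.058, 0.30 and 0.46 between the liver groups and 0.058, 0.012 and 0.26 between the tumor groups. From tumor to liver they were 0.017, 0.015 and 0.096 with TDB and -0.017, -0.039 and 0.078 with vehicle. Not every library correlated best with its own number, and the replicate block changed no other count of calls among the 9 genes.

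In liver Itgae was 0.36 by limma-voom and 0.058 with the replicate block, and S1pr1 was 0.050 by total counts. The interaction of Itgb7 was -0.038 on log2(FPKM + 1), a scale that understates low genes. By total counts, vehicle tumor against vehicle liver gave Itga4 0.26, Itgb2 0.47 and Itgae 0.30, and TDB tumor against TDB liver gave Itga4 0.92, Itgal 0.59 and Selplg 0.86. Without length scaling, the ratio to the T cell sum was 0.50 for Itga4 and 0.48 for Itgal in tumor and -0.0092 for Itgb7 in liver.

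With 1 library left out, the liver change ranged over -0.65 to 0.85 for Itgae, -0.11 to 0.29 for Itgb1, -0.14 to 0.011 for S1pr1, -0.15 to 0.33 for Sgpl1 and -0.056 to 0.90 for Arrb1, and the tumor change of S1pr1 over -0.43 to 0.12. The interaction ranged over -0.46 to 0.0024 for Itgb1 and -0.41 to 0.14 for S1pr1, and TDB tumor against TDB liver over -0.49 to 0.36 for Itga4, -0.84 to 0.14 for Itgal and -0.011 to 0.11 for Itgae. In liver the ratio of Itgal to Itgb2 ranged over -0.12 to 0.27 and that of Itgae to Itgb7 over -1.49 to 0.057. Relative to the T cell sum, the ranges in liver were -0.0036 to 0.80 for Itga4, -0.21 to 0.71 for Itgal, -0.12 to 0.54 for Itgb2, -0.094 to 0.33 for Itgb7 and -1.58 to 0.021 for Itgae, and in tumor -0.40 to 0.14 for Itga4 and -0.32 to 0.12 for Itgal. Relative to the leukocyte sum, Itgae ranged over -1.25 to 0.46 in liver and -0.12 to 0.60 in tumor. Counts over related lists moved too. In liver, where edgeR called 0 genes of the next 3 lists, ligands numbered 2 with the replicate block, integrin activation genes 2 by DESeq2, 1 with no filter, 3 with all libraries in one fit and 3 with the replicate block, and other homing receptors 3 by each of DESeq2, the single fit and the replicate block and 1 without liver TDB 1. In tumor DESeq2 called 0 of the activation genes lower, and the single fit called 5 of the activation genes higher and 0 lower, 2 of the regulators higher and 0 lower, and 0 of the sphingosine 1-phosphate genes higher and 1 lower. Leaving out 1 tumor library gave 0 to 2 lower sphingosine 1-phosphate genes (0 without TDB 2 or vehicle 3), 0 to 1 lower activation genes (0 without TDB 2, TDB 3, vehicle 1 or vehicle 3), 0 to 1 lower glycosylation genes (0 without TDB 2 or vehicle 1) and up to 7 higher integrin subunits (without vehicle 3). Causes of these changes were not tested. Depth limits Itgae, and Itgb7 and Ccr7 in vehicle tumors, to 23 counts or fewer per library in at least 1 group.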
